A study of Danio rerio with 6 samples.

Results

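The genes described here belong to the vitamin D system and to the hormones that set blood calcium in fish. They are the vitamin D enzymes cyp24a1 and cyp27b1, the vitamin D receptors vdra and vdrb, the calcium channel trpv6, the hormones pth1a, pthlha, stc1 and calca, and the calcium sensor casr. They were found by looking up the Ensembl identifiers of the abundance tables, with the paralog settled by its chromosome, and 9 of the 10 symbols matched a gene. These 9 occupied 10 of the 32520 gene rows, because 2 neighbouring rows carried the name vdra. No row carried calca. By order of start positions, the row named CALCB on chromosome 7 came between cyp2r1 and pde3b, and it lay within the listed span of cyp2r1. By the same order, cyp2r1 and pde3b are also the neighbours of calca in RefSeq assembly GRCz12tu. The row is described as CALCB and was not counted as a match.

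Polyadenylated RNA was sequenced from whole untreated zebrafish larvae, pooled by 30 for each sample at 5 days post fertilization. All were raised in medium containing 0.164 mM calcium chloride. The labels assign 3 samples to (stim2a;stim2b)-/-, mutant on both copies of both stim2 genes, and 3 to (stim2a;stim2b)+/+. STIM2 proteins sense calcium in the endoplasmic reticulum and open calcium channels of the plasma membrane, and the comparison asks which genes differ between the genotypes.

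The RNA of the targeted genes ran against these labels. The level of stim2a was 0.328 ± 0.0752 TPM under the label +/+ and 1.31 ± 0.104 TPM under -/-, and that of stim2b was 0.580 ± 0.128 and 1.57 ± 0.258 TPM (SD, n = 3 each). The names of the 6 abundance tables also give the genotypes the other way round from the labels. All directions below therefore follow the labels and not a verified genotype, and would turn if the labels were exchanged. TPM is the share of transcripts per unit of transcript length, scaled to 1000000 in each library, so it keeps no depth. Between 19582 and 20363 genes reached 1 TPM in a library. Over the 20330 genes tested, limma called 39.6%, with 6265 genes (30.8%) higher and 1781 (8.76%) lower under the label -/-. Over all of them the median log2 fold change was 0.22, and 0.00 once each library was divided by its median gene ratio to the mean of all libraries (called scaling to equal median gene ratios below). Replicate 3 of each label stood apart from replicates 1 and 2 on the first principal component. This component held 79.6% of the variance and also separated the labels, with replicate 3 shifted the same way under both. Replicates 1, 2 and 3 lay at -51.99, -46.38 and -18.09 under the label +/+, and at 29.93, 23.16 and 63.37 under -/-. The difference between the labels thus ran along an axis on which replicates of 1 label also differed. No label ties the pools to separate clutches, and p-values therefore cover no more than the spread among these 6 samples. In whole larvae, fewer cells of a type and less RNA per cell cannot be told apart.

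Vitamin D becomes a hormone in steps. The enzyme encoded by CYP2R1 makes the circulating form, CYP27B1 converts it to the active hormone, and the hormone binds the vitamin D receptor, which acts on DNA with a retinoid X receptor. CYP24A1 inactivates the hormone and is itself a well-known target of the receptor. Larval fish take up calcium from the water through TRPV6 channels in ionocytes of the skin. Parathyroid hormones raise calcium uptake and mineralization, whereas stanniocalcin, made in the corpuscles of Stannius beside the kidney, and calcitonin lower calcium uptake.

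Among the vitamin D genes, the inactivating enzyme was higher in libraries labelled -/-, and no call was made for the activating enzyme or the receptors. The gene cyp24a1 (ENSDARG00000103277.3, chromosome 6, 55852274 to 55864687) stood at 2.65, 2.54 and 3.78 TPM in libraries labelled +/+ and at 13.6, 9.40 and 13.1 TPM in libraries labelled -/-. Every library labelled -/- lay above every library labelled +/+, by a wide margin. The ratio of means was 4.02, and the log2 fold change, taken from log2(TPM + 0.5) and so too small for genes of low level, was 1.84 ± 0.19 (SE; limma adjusted p = 0.00158). This log2 fold change ranked 41 from the highest among the 20330 tested genes, or 20290 from the lowest. The call held without each library in turn, with log2 fold changes of 1.75 to 2.01 and a highest adjusted p of 0.0117. An exact two-sided permutation of the labels gave p = 0.1, the smallest that 3 against 3 can give.

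The activating enzyme gene cyp27b1 (ENSDARG00000045015.9, chromosome 11, 329687 to 339847) was read at a lower level. It stood at 0.930, 1.14 and 1.70 TPM in libraries labelled +/+ and at 1.08, 1.29 and 1.98 TPM in libraries labelled -/-. The groups overlapped, and replicate 3 was the highest of its group under both labels. The log2 fold change was 0.15 ± 0.22 (SE; limma adjusted p = 0.601) and changed sign to -0.03 once libraries were scaled to equal median gene ratios. A ratio of both enzymes within a library does not change when that library is multiplied by 1 factor, though quantile scaling can change it. The TPM ratio of cyp24a1 to cyp27b1 was 2.85, 2.22 and 2.23 in libraries labelled +/+ and 12.6, 7.31 and 6.59 in libraries labelled -/-. These groups did not overlap (means 2.43 ± 0.361 and 8.84 ± 3.28, SD, n = 3 each; exact two-sided permutation p = 0.1). This ratio, like the others below, was chosen after the values were seen. Its lack of overlap and its p therefore add no support to the values of the single genes.

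The receptor genes differed by less than cyp24a1. The first row named vdra (ENSDARG00000112923.1, chromosome 23, 45785563 to 45821620) stood at 5.06, 4.73 and 5.55 TPM in libraries labelled +/+ and at 6.89, 5.401 and 6.29 TPM in libraries labelled -/-, and the groups overlapped. The second row (ENSDARG00000099483.2, chromosome 23, 45822935 to 45825632), directly after it on the same strand, stood at 4.95, 4.75 and 6.00 TPM and at 6.39, 6.75 and 8.86 TPM. Here the groups did not overlap. The log2 fold changes were 0.25 ± 0.13 (SE; adjusted p = 0.151) for the first row and 0.44 ± 0.16 (SE; adjusted p = 0.0535) for the second, by limma. The paralog vdrb (ENSDARG00000070721.8, chromosome 6, 38954733 to 39006449) stood at 5.64, 5.80 and 7.97 TPM against 8.47, 7.002 and 10.9 TPM. Its groups overlapped, with a log2 fold change of 0.41 ± 0.19 (SE; limma adjusted p = 0.115). The TPM ratio of cyp24a1 to vdrb was 0.461 ± 0.0201 in libraries labelled +/+ and 1.38 ± 0.205 in libraries labelled -/- (SD, n = 3 each), without overlap.

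With the replicate number as a block, the second vdra row (adjusted p = 0.0046) and vdrb (0.008) passed as higher by limma. They also passed without replicate 3 labelled +/+ (0.0331 and 0.0434). With libraries scaled to equal median gene ratios their log2 fold changes were 0.22 and 0.18 (adjusted p = 0.134 and 0.278).

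**Figure D1:**
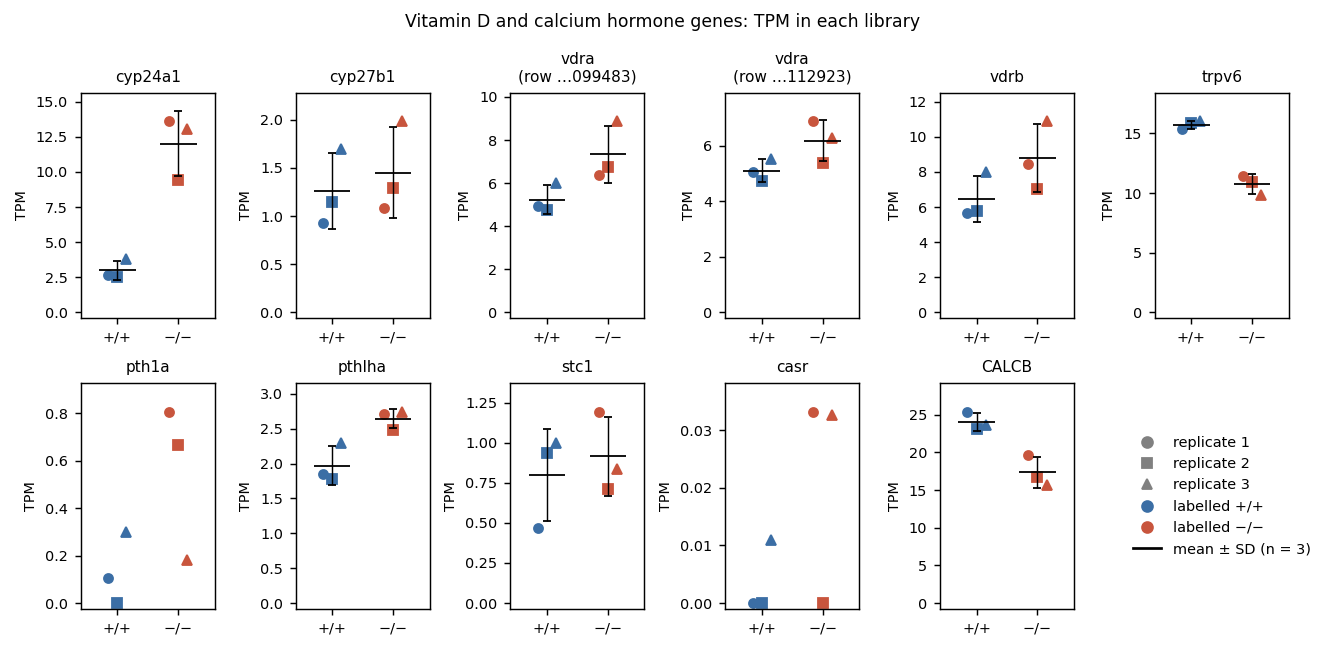
TPM of the matched genes and of CALCB in each library, with libraries labelled +/+ in blue and -/- in red, marker shape for the replicate number, and bars for the mean ± SD (n = 3; left out for pth1a and casr, which are listed at 0 in some libraries). The groups separate for cyp24a1 (higher in -/-), trpv6 and CALCB (lower in -/-), and by smaller margins for 1 vdra row and pthlha.

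The calcium channel gene trpv6 was lower in libraries labelled -/-. This gene (ENSDARG00000014496.11, chromosome 16, 12294284 to 12319822) stood at 15.4, 15.8 and 16.0 TPM in libraries labelled +/+ and at 11.5, 10.97 and 9.88 TPM in libraries labelled -/-. The groups did not overlap, and the libraries labelled +/+ lay close together. The means were 15.7 ± 0.339 and 10.8 ± 0.803 TPM (SD, n = 3 each), 1.46-fold higher in libraries labelled +/+, with a log2 fold change of -0.53 ± 0.10 (SE; limma adjusted p = 0.0126). With libraries scaled to equal median gene ratios it was -0.76 (adjusted p = 0.00386). The call was lost without replicate 1 labelled +/+ (adjusted p = 0.0578) or replicate 2 labelled +/+ (0.0663), while the log2 fold change stayed between -0.57 and -0.47 without each library in turn. The 3′ end of its span overlaps si:dkey-26c10.5 on the opposite strand, at 2 to 3.75 TPM, so reads of the shared stretch may not be fully separated.

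In the list of stanniocalcins and the IGF axis of calcium-transporting ionocytes, igfbp5a was called lower, like trpv6. It encodes an IGF-binding protein that zebrafish make in these cells. Its level was 8.90 ± 0.526 TPM in libraries labelled +/+ and 6.33 ± 0.423 TPM in libraries labelled -/- (SD, n = 3 each; log2 fold change -0.46, adjusted p = 0.0199 by limma). Its paralog igfbp5b gave no call at a log2 fold change of 0.32 (limma adjusted p = 0.0787, or 0.0116 with the replicate block). The IGF receptor gene igf1ra was called higher (log2 fold change 0.56, limma adjusted p = 0.0438). That call was lost under 8 of 16 alternatives, among them scaling to equal median gene ratios (0.0582). The calcium pump genes atp2b1b (0.83; 0.0181) and atp2b2 (1.13; 0.0168), of a family that moves calcium out of cells, were called higher. The ionocyte transcription factor genes foxi3a (13.5 ± 2.36 and 14.1 ± 1.18 TPM) and foxi3b (4.58 ± 0.729 and 4.67 ± 0.268 TPM) gave no call (SD, n = 3 each; limma adjusted p = 0.671 and 0.851). The TPM ratio of trpv6 to foxi3b was 3.89, 3.59 and 2.98 in libraries labelled +/+ and 2.44, 2.5 and 2.01 in libraries labelled -/-. These ratios did not overlap between the groups. The ratio of igfbp5a to foxi3b, 1.97 ± 0.231 and 1.36 ± 0.0576 (SD, n = 3 each), did not overlap either. These outcomes hold for foxi3b and depend on the marker chosen. Of 15 tested ionocyte markers 2 were called higher and 1, ca15a, lower. The log2 fold change of ca15a was -0.88, lower than that of trpv6 (-0.53) and of igfbp5a (-0.46). Both ratios to foxi3b had p = 0.1 by an exact two-sided permutation test, the smallest possible here. As trpv6 and igfbp5a separated the groups on their own, this adds no support to the values of the single genes.

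The call of igfbp5a was also lost without replicate 1 or replicate 2 labelled +/+ (highest adjusted p = 0.0798 by limma). Of 15 tested ionocyte markers, 2 were called higher and 1 lower, beside 30.8% and 8.76% of all tested genes. The higher ones were the sodium pump gene atp1a1a.4 and the sodium-proton exchanger gene slc9a3.2, and the lower one was the carbonic anhydrase gene ca15a. Once libraries were scaled to equal median gene ratios 1 was higher and 6 lower, beside 22% and 22.4%. The replicate block gave 4 higher and 2 lower, beside 45.6% and 13.3%. The summed level of these markers was 436 to 547 TPM in libraries labelled +/+ and 542 to 614 TPM in libraries labelled -/-. These ranges overlapped, and no marker was at 0 in every library. Within the sum, the mean of atp1a1a.4 was 114 TPM under the label +/+ and 222 TPM under -/-, and that of ca15a was 47.6 and 25.9 TPM. Epidermal genes moved with trpv6. Of 12 tested, 8 were lower and none higher, beside 8.76% and 30.8% of all tested genes (9 lower with the replicate block, beside 13.3%). Their summed level was 23201 to 26453 TPM against 18841 to 19423 TPM, with none at 0 in every library. Their part in the difference of trpv6 was not tested.

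**Figure D2:**
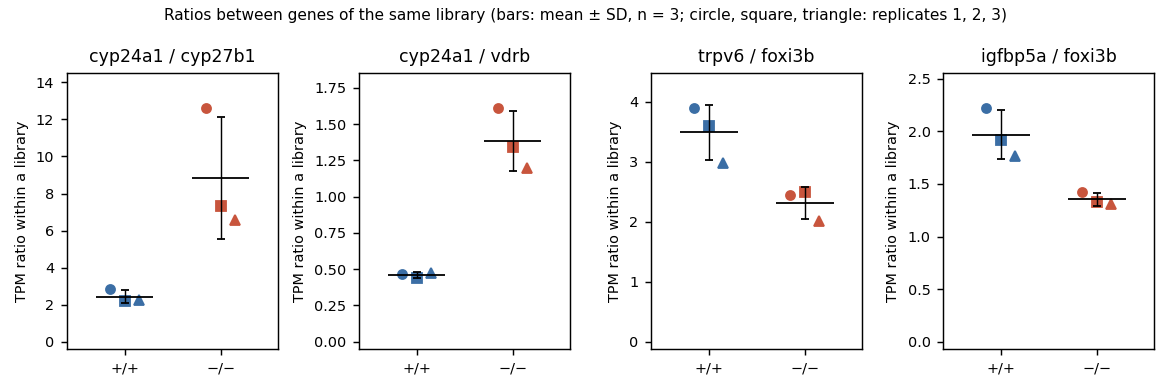
Ratios of TPM between genes of the same library, by label, with marker shape for the replicate number and bars for the mean ± SD (n = 3). The ratio of cyp24a1 to cyp27b1 rests at 2.22 to 2.85 in libraries labelled +/+ and at 6.59 to 12.6 in libraries labelled -/-. The ratios of trpv6 and igfbp5a to foxi3b are lower in libraries labelled -/-. All ratios were chosen after the values were seen, and those to foxi3b depend on the marker chosen.

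Among the hormone genes, the calcitonin family row was lower in libraries labelled -/-, and pthlha gave no call. The levels of pth1a and stc1 were too low for them to be tested. CALCB (ENSDARG00000056590.9, chromosome 7, 27680556 to 27696958) is named for the family whose genes make calcitonin and the neuropeptide CGRP in mammals. It stood at 25.4, 23.1 and 23.6 TPM in libraries labelled +/+ and at 19.7, 16.7 and 15.7 TPM in libraries labelled -/-, without overlap. Its log2 fold change was -0.46 ± 0.11 (SE; limma adjusted p = 0.0197) and -0.70 once libraries were scaled to equal median gene ratios. The call was lost without replicate 1 labelled +/+ (adjusted p = 0.0858) or replicate 2 labelled +/+ (0.0741). Its span lies wholly within that of cyp2r1 (27455321 to 27697234), on the opposite strand. The libraries were stranded, but the sources used here do not say whether counting used strand, so the reads of these 2 genes may not be fully separated.

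The gene pthlha (ENSDARG00000031737.9, chromosome 4, 612363 to 626550) encodes a parathyroid hormone-related protein. It stood at 1.84, 1.78 and 2.29 TPM in libraries labelled +/+ and at 2.71, 2.48 and 2.74 TPM in libraries labelled -/-. The groups did not overlap, but the log2 fold change of 0.35 ± 0.13 (SE) missed the threshold (adjusted p = 0.0632 by limma). It passed with the replicate block (0.0258) and without replicate 3 labelled +/+ (0.0298), and was 0.15 once libraries were scaled to equal median gene ratios (0.247).

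The remaining matched genes lay under the filter of at least 1 TPM in at least 3 libraries and were not tested. The parathyroid hormone gene pth1a (ENSDARG00000093738.3, chromosome 25, 17860798 to 17861696) was listed at 0.106, 0 and 0.297 TPM in libraries labelled +/+ and at 0.805, 0.667 and 0.180 TPM in libraries labelled -/-. The groups overlapped, because replicate 3 labelled -/- lay below replicate 3 labelled +/+. The stanniocalcin gene stc1 (ENSDARG00000003303.8, chromosome 8, 50322769 to 50346246) stood at 0.467, 0.934 and 0.997 TPM and at 1.19, 0.714 and 0.838 TPM, also overlapping (exact two-sided permutation p = 0.7). The calcium-sensing receptor gene casr (ENSDARG00000013649.11, chromosome 5, 67768162 to 67783593) was listed at 0, 0 and 0.0109 TPM and at 0.0331, 0 and 0.0326 TPM. The authors' deposited table gave casr a mean of 2.16 normalized counts per sample and pth1a 10.7. For pth1a the authors' deposited table gave a log2 fold change of -0.79 ± 0.40 (SE; p = 0.0496, adjusted p = 0.208). With genes kept at 0.1 TPM, limma gave pth1a 0.70 ± 0.27 (SE; adjusted p = 0.0789).

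The order of levels per unit of transcript length differed between the labels in the place of cyp24a1. In the libraries labelled +/+ the order by mean TPM was CALCB (24.0), trpv6 (15.7), vdrb (6.47), the 2 vdra rows (5.23 and 5.11), cyp24a1 (2.99), pthlha (1.97), cyp27b1 (1.26) and stc1 (0.799). The second vdra row (5.23) overlapped both vdrb and the first vdra row (5.11), while vdrb lay above the first vdra row without overlap. Also overlapping were cyp27b1 and stc1. In the libraries labelled -/- cyp24a1 stood second at 12 TPM, after CALCB (17.4). There its values lay above those of both vdra rows but overlapped those of trpv6 (10.8) and vdrb (8.78), whereas under the label +/+ they lay below all 3 receptor rows. Of the 7 tested rows, 2 were called by limma, cyp24a1 as higher and trpv6 as lower, beside 39.6% of all tested genes. Groups did not overlap for 4 of the 7, beside 55.8% of all tested genes. By direction, 3 of these 4 were higher and 1 lower, beside 39.5% and 16.3% of all tested genes. The median log2 fold change of the 7 was 0.35, beside 0.22 over all tested genes.

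The counts of called rows moved with the fit, as did the background. Once libraries were scaled to equal median gene ratios the calls were again cyp24a1 and trpv6, beside 44.5% of all tested genes (22% higher and 22.4% lower). With the replicate block 4 of the 7 rows were higher and 1 lower, beside 58.8% of all tested genes (45.6% higher and 13.3% lower). Without replicate 3 labelled +/+ 5 were called, beside 47.6%. Without replicate 1 or replicate 2 labelled +/+ cyp24a1 alone was called, beside 4.38% and 3.23% of all tested genes.

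The authors' deposited table, which rests on normalized counts, does not state its direction. Its sign was opposite to the difference used here for 8037 of the 8046 called genes. For cyp24a1 the authors' deposited table gave -1.75 ± 0.16 on the log2 scale (SE; adjusted p = 2.76e-24) at a mean of 746 normalized counts. The authors' deposited table gave trpv6 0.72 ± 0.13 (SE; adjusted p = 1.44e-06) and CALCB 0.61 ± 0.12 (SE; adjusted p = 3.29e-05). The other matched rows had adjusted p of 0.208 or more in the authors' deposited table. These include the second vdra row (0.306), vdrb (0.57), pthlha (0.512) and cyp27b1 (0.979).

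**Figure D3:**
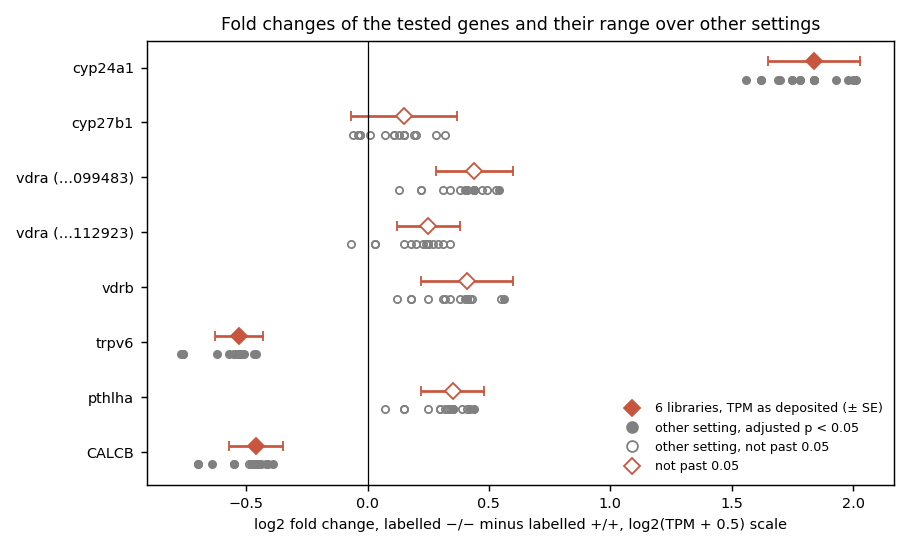
Log2 fold changes (labelled -/- minus labelled +/+, log2(TPM + 0.5) scale) of the tested rows with 6 libraries and TPM as deposited (diamonds ± SE, filled where called) and under the other settings (circles, filled where called). The values of cyp24a1 stay between 1.56 and 2.01 and those of trpv6 between -0.77 and -0.46, while those of cyp27b1 and 1 vdra row fall on both sides of 0.

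The enzymes, carriers and partners of vitamin D were described over a list of related genes. Of 16 tested, 10 were higher in libraries labelled -/- and none lower by limma, beside 30.8% of all tested genes called higher. The largest was cyp3a65, a drug-metabolizing cytochrome P450 whose mammalian relatives are receptor targets. It stood at 31.3, 41.9 and 79.3 TPM in libraries labelled +/+ and at 189, 185 and 315 TPM in libraries labelled -/- (log2 fold change 2.23 ± 0.34, SE; adjusted p = 0.00761 by limma). The gene dhcr7 encodes the enzyme that turns the vitamin D precursor into cholesterol. It stood at 8.79, 8.90 and 6.12 TPM against 24.2, 23.8 and 32.7 TPM (log2 fold change 1.70 ± 0.18, SE; adjusted p = 0.00167 by limma). The groups of both genes were far apart.

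The gene gc encodes the vitamin D-binding protein of blood, and its mean was 51.7 ± 11.6 TPM against 96.4 ± 13.4 TPM (SD, n = 3 each; limma adjusted p = 0.0118). The endocytic receptor genes lrp2a and cubn, whose mammalian counterparts take up that protein in the kidney, had log2 fold changes of 0.97 and 1.45 (adjusted p = 0.012 and 0.0122 by limma). Among the retinoid X receptors rxraa (0.68, adjusted p = 0.0284) and rxrgb (0.59, 0.0211) were called, the former lost under 5 of 17 alternatives. The enzyme gene cyp2r1 gave no call (4.84 ± 0.964 and 5.99 ± 0.661 TPM, SD, n = 3 each; limma adjusted p = 0.169). With the replicate block it passed (0.0483), and 15 of the 16 were higher, beside 45.6% of all tested genes. With libraries scaled to equal median gene ratios 8 were higher and none lower, beside 22% and 22.4%.

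Most kidney markers and part of the intestine markers moved with these genes. Of 13 tested pronephros markers 10 were higher and none lower, beside 30.8% and 8.76% of all tested genes, lrp2a and cubn among them, with a summed level of 101 to 128 TPM in libraries labelled +/+ and 152 to 187 TPM in libraries labelled -/-. Of 12 tested rows of 11 intestine markers 7 were higher and none lower, beside the same shares, with overlapping sums of 2805 to 3609 and 2946 to 3768 TPM. The intestinal brush border gene vil1 had a log2 fold change of 1.75, and the fatty acid-binding protein gene fabp2 stood at 1212 ± 13.1 and 1138 ± 95.8 TPM (SD, n = 3 each) with no call. None of these markers was at 0 in every library. Blocked by replicate, 12 pronephros and again 7 intestine markers were higher, beside 45.6% of all tested genes. Neuron markers were higher for 13 of 15, beside 30.8% (14 with the block), with sums of 510 to 701 and 829 to 1192 TPM. Once libraries were scaled to equal median gene ratios 9 pronephros, 5 intestine and 13 neuron markers were higher, beside 22%. Lower after that scaling were 1 pronephros marker and 1 neuron marker, beside 22.4%. The part of these markers in the differences of the vitamin D genes was not tested.

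Of 8 tested genes of the parathyroid family, its receptors and gland factors, 4 were higher and 1 lower, beside 30.8% and 8.76% of all tested genes. The lower one was pth1b, the paralog of pth1a, at 3.22, 2.65 and 2.66 TPM in libraries labelled +/+ and 1.74, 1.302 and 2.07 TPM in libraries labelled -/- (log2 fold change -0.61 ± 0.16, SE; adjusted p = 0.0255 by limma). Its groups did not overlap, and the call was lost under 4 of 16 alternatives. The higher ones included pth2 and pth4, relatives of parathyroid hormone that are made in the fish brain. The level of pth2 was 1.63 ± 0.171 and 3.37 ± 0.236 TPM (adjusted p = 0.00692) and that of pth4 was 1.26 ± 0.405 and 3.31 ± 1.11 TPM (0.0174; SD, n = 3 each, by limma). Over this list the replicate block gave 5 higher and 1 lower, beside 45.6% and 13.3% of all tested genes. Scaling to equal median gene ratios gave 4 higher and 2 lower, beside 22% and 22.4%.

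The transcription factor genes gata3 and mafba, needed for the parathyroid gland in mammals and active in many other tissues, were also higher (log2 fold changes 0.75 and 0.80). A further gland factor gene, gcm2, which is also an ionocyte factor in zebrafish, gave no call and leaned the other way (13.9 ± 4.70 and 9.76 ± 3.79 TPM, SD, n = 3 each; limma adjusted p = 0.264), with overlapping groups. The receptor gene pth1ra gave no call (0.903 ± 0.264 and 1.43 ± 0.251 TPM, SD, n = 3 each; limma adjusted p = 0.0596) and passed with the replicate block (0.0135). The receptor gene pth1rb stood at 3.75 ± 0.289 and 2.93 ± 0.767 TPM (SD, n = 3 each; limma adjusted p = 0.152). It passed as lower once libraries were scaled to equal median gene ratios (0.0367). The paralog pthlhb lay under the filter, at 0.226 ± 0.063 and 0.509 ± 0.0516 TPM.

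The calcitonin family and its receptors gave 2 lower calls and 1 higher call among 10 tested, beside 8.76% of all tested genes called lower and 30.8% higher. Blocked by replicate, 3 were higher and 2 lower, beside 45.6% and 13.3%. After scaling to equal median gene ratios 1 was higher and 4 lower, beside 22% and 22.4%. Besides CALCB, the adrenomedullin gene admb was lower, at 4.30, 4.03 and 4.01 TPM in libraries labelled +/+ and 2.54, 2.46 and 2.42 TPM in libraries labelled -/- (log2 fold change -0.63 ± 0.11, SE; adjusted p = 0.0114 by limma). Its groups were tight and did not overlap. The receptor activity-modifying protein gene ramp3, on a scaffold outside the chromosomes, was higher (log2 fold change 0.91; adjusted p = 0.046), with overlapping groups and a call lost under 7 of 16 alternatives. The receptor genes calcr (2.40 ± 0.412 and 3.24 ± 0.809 TPM) and calcrla (11.1 ± 0.310 and 10.3 ± 0.254 TPM) gave no call (SD, n = 3 each; limma adjusted p = 0.166 and 0.362). With the replicate block calcr passed as higher (0.0219), and once libraries were scaled to equal median gene ratios calcrla passed as lower (0.0396).

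Of the stanniocalcins other than stc1, only stc2b was called by limma with all libraries. The gene stc1l, the closest paralog of stc1 by name, stood at 3.98 ± 0.507 and 5.02 ± 0.933 TPM (SD, n = 3 each; limma adjusted p = 0.163), above the level of stc1 under both labels, and passed with the replicate block (0.0453). The gene stc2b was higher under the label -/-, at 4.64 ± 0.583 against 6.97 ± 0.491 TPM (SD, n = 3 each, limma adjusted p = 0.0198). That call was lost under 4 of 17 alternatives, among them scaling to equal median gene ratios (0.0523). The gene stc2a stood at 8.11 ± 0.296 and 7.02 ± 0.726 TPM (SD, n = 3 each; limma adjusted p = 0.189) and passed as lower after that scaling (0.0298). Over this list, which also holds genes of the IGF axis, 2 were higher and 1 lower of 6 tested, beside 30.8% and 8.76% of all tested genes. With the replicate block 4 were higher and 1 lower, beside 45.6% and 13.3%. Once libraries were scaled to equal median gene ratios none was higher and 2 were lower, beside 22% and 22.4%.

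Of 11 tested genes of phosphate hormones and transport, 7 were higher and none lower, beside 30.8% and 8.76% of all tested genes. The replicate block gave 10 higher, beside 45.6%. After scaling to equal median gene ratios 5 were higher and none lower, beside 22% and 22.4%. The sodium-phosphate cotransporter gene slc34a2b stood at 5.99, 6.19 and 12.7 TPM in libraries labelled +/+ and at 21.1, 19.3 and 37.7 TPM in libraries labelled -/- (log2 fold change 1.61 ± 0.33, SE; adjusted p = 0.015 by limma), and slc34a1a had a log2 fold change of 1.29 (0.0124). The gene fgf23, which encodes a bone hormone that lowers phosphate and active vitamin D in mammals, gave no call (1.34 ± 0.249 and 2.00 ± 0.336 TPM, SD, n = 3 each; limma adjusted p = 0.0581). It passed with the replicate block (0.0256). Of 17 tested genes of calcium sensing and transport across cells, 7 were higher and none lower, beside the same 30.8% and 8.76%. With the replicate block 13 were higher, beside 45.6%. Once libraries were scaled to equal median gene ratios 7 were higher and none lower, beside 22% and 22.4% of all tested genes. Among the 7 were the calcium pump gene atp2b2 (log2 fold change 1.13) and calb2a, which encodes the calcium-binding protein calretinin (0.94). Both are also known from neurons, whose markers were higher in the same libraries, and the part of neurons in these differences was not tested.

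Over the 68 tested related genes 31 were higher and 4 lower, beside 30.8% and 8.76% of all tested genes. Once libraries were scaled to equal median gene ratios 25 were higher and 8 lower, beside 22% and 22.4%. The 4 lower genes were CALCB, admb, pth1b and igfbp5a. Without replicate 1 or replicate 2 labelled +/+, 3 of the 68 were called, beside 4.38% and 3.23% of all tested genes. In both cases these were cyp3a65, dhcr7 and pth2. With the replicate block 50 were higher and 4 lower, beside 45.6% and 13.3%. Osteoblast markers mark cells that respond to vitamin D and parathyroid hormones. Of 8 tested, 2 were higher and 1 lower, beside 30.8% and 8.76% of all tested genes. With the replicate block 4 were higher and 2 lower, beside 45.6% and 13.3%. Once libraries were scaled to equal median gene ratios 2 were higher and 2 lower, beside 22% and 22.4%. The summed level of the osteoblast markers was lower under the label -/-, at 936 to 955 TPM in libraries labelled +/+ and 814 to 850 TPM in libraries labelled -/-. None of them was at 0 in every library.

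**Figure D4:**
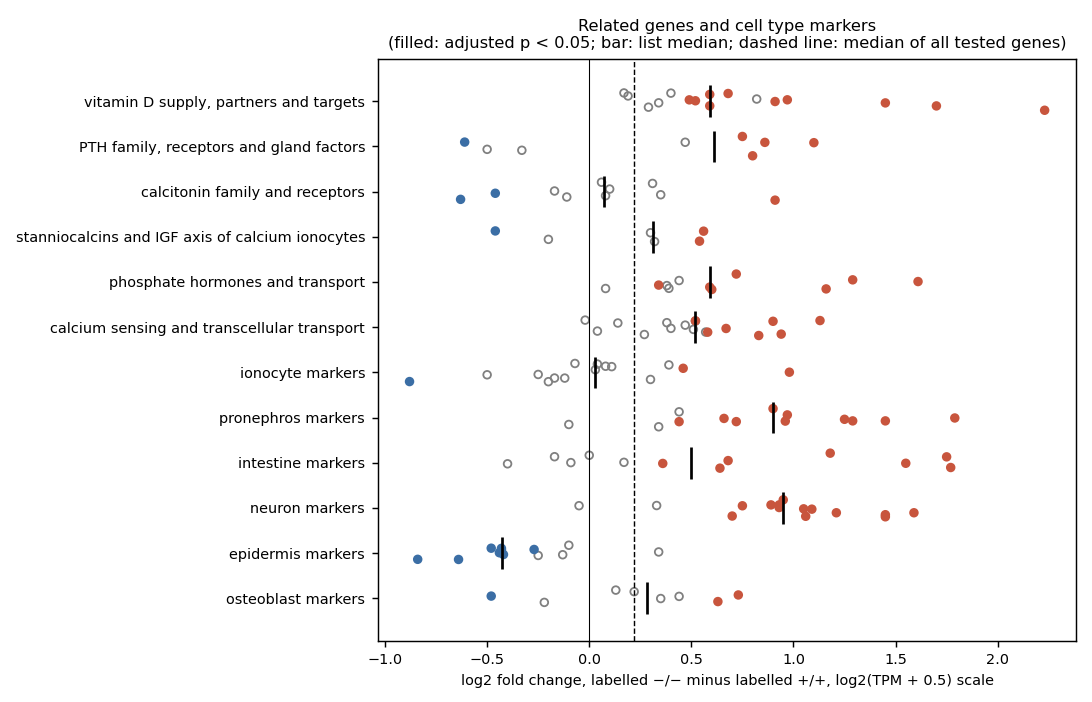
Log2 fold changes (labelled -/- minus labelled +/+, log2(TPM + 0.5) scale) of tested related genes and cell type markers by list, with called genes filled (red higher, blue lower), a bar at each list's median and a dashed line at 0.22, the median of all tested genes. The epidermal list has its median to the left of 0, and the calcitonin and ionocyte lists have theirs near 0. Every other list has its median to the right of the dashed line.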

How the data were processed

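Each library had an abundance table in the layout of StringTie, per the file headers. Builds danRer11 and hg38 and the tools DESeq2 1.16.1, StringTie 1.3.3b and STAR 2.5.3a appear, with no role, in the submitters' processing notes. Coordinates are those of the tables. The authors deposited coverage (a signal per base), FPKM and TPM per gene, and a table of their own test with a mean signal of normalized counts, log2 fold changes, a Wald score and p-values. The sources used here do not say how reads shared by near-identical genes were counted.

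TPM rows of 1 gene were summed. Calls came from limma 3.58.1 in R 4.3.3 (trend) on log2(TPM + 0.5), for genes reaching 1 TPM in 3 or more libraries, with Benjamini-Hochberg adjustment over all 20330 and a threshold of 0.05. Differences are labelled -/- minus labelled +/+. The fit was also run on simulated data in which genes varied independently, with no shift shared by a library. That run cannot show how far calls depend on single libraries. Permutation tests used SciPy 1.17.1 under Python 3.11.15. Genes were named from an Ensembl identifier table, or by the single matching RefSeq GRCz12tu symbol on the chromosome. The members, lists and tests were chosen with earlier results of these data known. Of 84 related entries 76 matched a gene. Text names the members, their direct receptors, paralogs and enzymes, and up to 4 called genes per list; stim2a, stim2b, the ionocyte factors, cubn, rxrgb, gcm2 and igfbp5b (chosen after their values were seen) and the markers vil1, fabp2, atp1a1a.4, slc9a3.2 and ca15a were named besides. A promoter motif search was not run here.

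Replicate numbers come from the titles. Deviations of equal numbers correlated at 0.25, 0.19 and 0.48, each above the 0.1 set for pairing, so blocked values are printed beside the named genes and list counts whose calls they change. Other matchings of the numbers were not compared, and no label names a shared clutch. The pairing is therefore not established, and calls made only with the block rest on it.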

Additional observations from a re-analysis of the deposited data

How the results depend on the processing

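The fit of all 6 libraries called 8046 genes, with 5238 called at a mean of at least 5 TPM, where fewer genes were tested. Leaving out each library in turn gave 657 to 9677 calls over all genes, 1 to 5 among the matched genes and 3 to 45 among the related genes (35 with all libraries); the low ends came without replicate 1 or 2 labelled +/+. Without replicate 3 of both groups 5 of the 7 tested matched rows were called, beside 10447 of all 20330 tested genes. The replicate block also called 5, beside 58.8% of all tested genes, and raised the related calls to 54. The split of 6265 higher and 1781 lower became 4477 and 4560 with libraries scaled to equal median gene ratios, whereas quantile scaling gave 4161 and 4229. The call of cyp24a1 held under all 17 alternatives, that of trpv6 under 15 of 17 and that of CALCB under 15 of 17. Values that changed sign were uncalled. These were cyp27b1 after the median scaling (-0.03, also with the block), with quantile scaling (-0.06) and without replicate 3 labelled -/- (-0.04; range -0.04 to 0.32 without each library in turn), and, with quantile scaling, the first vdra row (-0.07), cyp2r1 (-0.03) and stc1l (-0.01). Absolute depth is not known from TPM, and pth1a and casr rest on few reads.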
